A study of Mus musculus with 12 samples.

Results

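Potassium channel genes were taken as the protein-coding genes whose symbol starts with Kcn in the gene table of a mouse cerebellum RNA-seq experiment, 94 of the 55385 genes listed there and of its 21856 protein-coding genes. Of the 94, 40 encode voltage-gated channels, 15 inward rectifiers, 14 two-pore channels, 8 calcium-activated channels and their sodium-activated and pH-activated relatives, and 17 auxiliary subunits. A further 5 Kcn symbols belong to lncRNAs, Kcnq1ot1 among them, and were left out. The experiment compared 3 libraries of EED-/- conditional knockouts with 3 of wild-type (WT) mice, both of the C57BL/6 strain. They were made from polyadenylated RNA of the cerebellum at postnatal day 14, and the labels record no treatment. The EED protein is part of the Polycomb complex that places the repressive mark H3K27me3 on histones, and the comparison asked which transcripts differ when its gene is deleted. Neither the driver of the Cre recombinase nor the deleted exons are given in the labels, so the cells that lost Eed are not known. Nor do the labels tie each library to an animal of its own, and the spread behind the p-values may be partly technical. A further 6 ChIP-seq samples were not analysed here.

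Potassium channels let potassium leave the cell and so set the resting potential, repolarise action potentials and limit firing. Voltage-gated channels open on depolarisation, inward rectifiers pass current mostly near rest, two-pore channels carry leak current, and calcium-activated channels couple firing to calcium entry, while auxiliary subunits change the trafficking and kinetics of the pore subunits. In the cerebellum, fast voltage-gated channels serve the high firing rates of Purkinje cells and interneurons, leak channels hold granule neurons silent at rest, and glial inward rectifiers clear potassium from around active neurons.

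Levels are given as CPM, each gene's share of its library's counts after TMM scaling. The libraries held 19621814 to 20366173 estimated counts, of which 3.21% to 8.04% were mitochondrial (6.45% to 8.04% in EED-/- and 3.21% to 6.37% in WT libraries). Eed had 11.6, 9.31 and 11.3 CPM in EED-/- replicates 1, 2 and 3, against 20.1, 26.6 and 23.5 CPM in WT replicates 1, 2 and 3. Its level was lower in every EED-/- library (log2 fold change -1.12, SE 0.154, adjusted p = 0.0015 by edgeR's quasi-likelihood test with Benjamini-Hochberg adjustment over the 18091 tested genes). That test and an adjusted p under 0.05 are behind each call below, fold changes are EED-/- over WT, and values per library follow the replicate order 1, 2, 3. In bulk tissue, fewer cells of a type and less RNA per cell cannot be told apart. All 10 granule neuron markers fell (median log2 change -2.97), their summed level being 563 to 807 CPM in EED-/- and 5102 to 6452 CPM in WT libraries. All 8 skeletal muscle genes rose, with a summed level of 72.6 to 115 CPM in EED-/- and 4.24 to 5.23 CPM in WT libraries. Of the 8 Purkinje cell markers edgeR called 0 (2 at an unadjusted p under 0.05, 1 by DESeq2 and 0 by limma-voom), and their sum was 3806 to 5378 CPM in EED-/- and 3723 to 4412 CPM in WT libraries. Of 7 markers of cerebellar nuclei and brainstem neurons 6 rose, with a sum of 980.1 to 1224 CPM in EED-/- and 666 to 715 CPM in WT libraries. Of 7 microglial markers 6 rose and of 5 oligodendrocyte progenitor markers 4 rose. Of 6 oligodendrocyte markers 3 fell, of 8 markers of Bergmann glia and astrocytes 2 rose and 3 fell, of 7 markers of molecular layer interneurons 1 rose and 3 fell, and of 8 mural and endothelial markers 2 rose. Of 4 inner ear and retina genes 2 were tested and edgeR called 0 (1 at an unadjusted p under 0.05, 0 by DESeq2 and 0 by limma-voom). No marker of these lists had 0 counts in every library of either genotype. The part of such shifts in the results below was not tested.

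Potassium channel genes changed in both directions: 19 of the 82 tested members were higher and 19 lower in EED-/- cerebellum, 46.3% together. Over all tested genes 25.8% were called, 11.7% higher and 14.1% lower, and over tested protein-coding genes 27.6%. Libraries of the genotypes did not overlap in 51 of the 82 members, the 38 called ones among them, against 43.9% of all tested genes. Among the members 8 rose and 12 fell by at least 2-fold, against 5.77% and 4.6% of all tested genes. The median log2 change of the 82 members was 0.17, against -0.03 for all tested genes. The falls included abundant members: of the 10 with the highest CPM per kb of exon in WT, 6 fell, each at a log2 change below 0 with every scaling tried, and Kcnj10, Kcna1, Kcnab2 and Kcna2 were not called. The calls of 2 of the 6 ended under most alternatives, that of Kcnk9 among them. With upper-quartile scaling, which raised the median log2 change of all genes by 0.12, the members' split was 26 higher and 16 lower. Without EED-/- replicate 1 the higher members numbered 12. The summed level of all 94 members was 4827, 4859.7 and 5582 CPM in EED-/- libraries, against 6536, 6014 and 5903 CPM in WT libraries, so every EED-/- library was below every WT library in these TMM-scaled values, whereas with upper-quartile scaling the ranges overlapped at 4971 to 5844 CPM in EED-/- and 5667 to 6337 CPM in WT libraries.

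**Figure D1:**
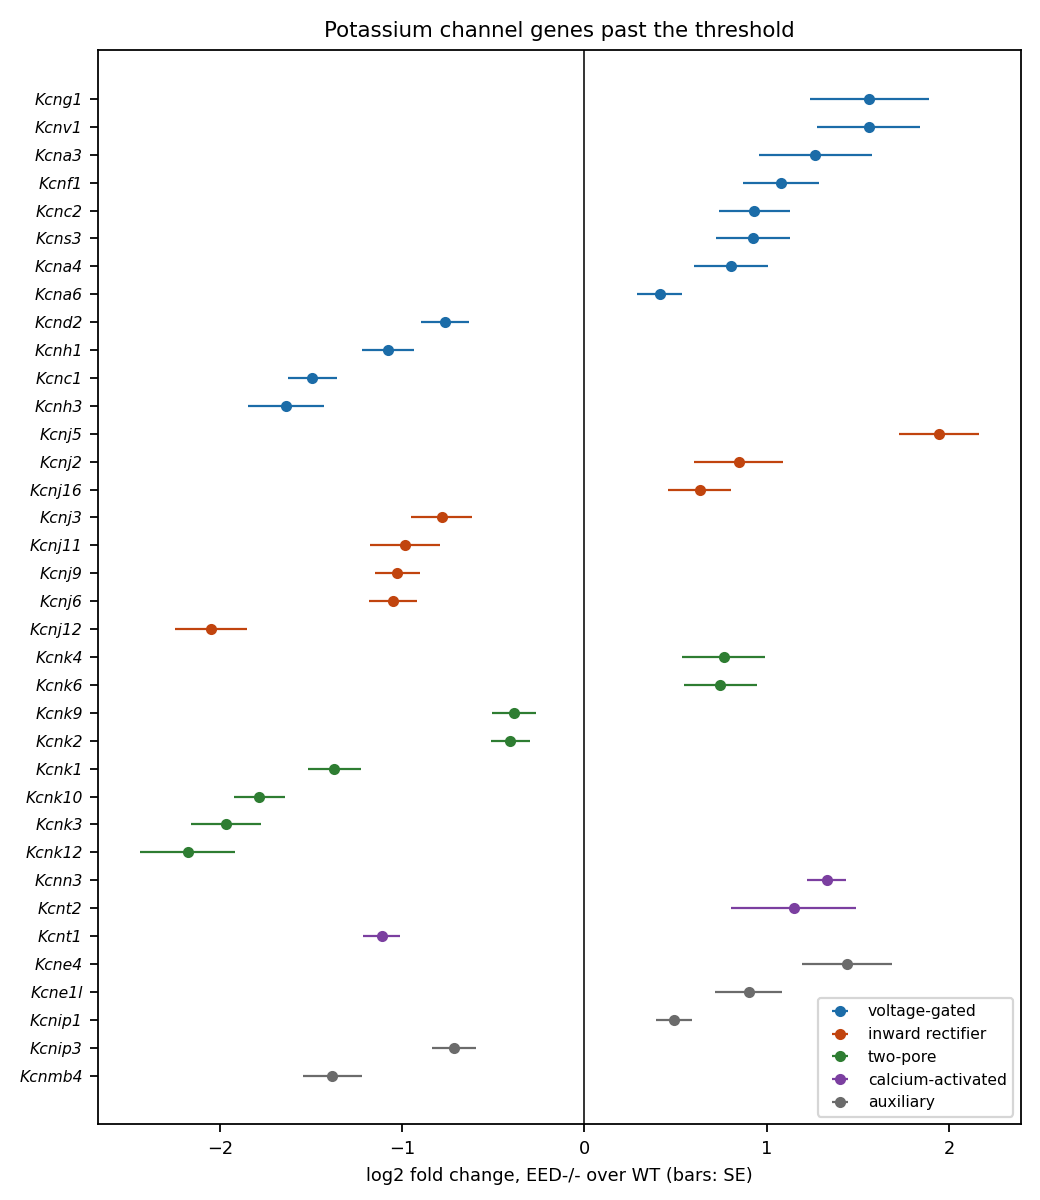
Log2 fold change (x axis, EED-/- over WT) of 36 potassium channel genes past the threshold, with SE as bars, grouped by subfamily from top to bottom. The 18 genes right of 0 were higher and the 18 left of 0 lower; the lowest value belongs to Kcnk12 (-2.18) and the highest to Kcnj5 (1.95).

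CpG-rich promoters are a known feature of Polycomb targets. The promoter windows given first are those of the 2 lower and 2 higher members with the smallest adjusted p. Only members with a RefSeq window within 100 bases of the GENCODE gene start were eligible. The 2 lower genes differ widely in CpG count, and the 2 higher ones do not. Each window runs 5′ to 3′ on the gene's strand in GRCm38.p6, with CpG dinucleotides in capitals. It spans 250 bases before to 50 bases after the annotated start. Kcnk10 (chr12:98578164-98578463, minus strand) and Kcnc1 (chr7:46396218-46396517, plus strand) were lower in EED-/-, with 7 and 41 CpGs. Kcnn3 (chr3:89519914-89520213, plus strand) and Kcnj5 (chr9:32344295-32344594, minus strand) were higher, with 11 and 10 CpGs.
Kcnk10: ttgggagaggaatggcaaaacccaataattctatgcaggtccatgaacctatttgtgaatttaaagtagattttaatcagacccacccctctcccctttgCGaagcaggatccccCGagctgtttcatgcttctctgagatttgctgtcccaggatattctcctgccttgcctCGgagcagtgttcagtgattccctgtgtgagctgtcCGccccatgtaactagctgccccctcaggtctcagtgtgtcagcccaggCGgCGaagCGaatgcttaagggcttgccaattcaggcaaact
Kcnc1: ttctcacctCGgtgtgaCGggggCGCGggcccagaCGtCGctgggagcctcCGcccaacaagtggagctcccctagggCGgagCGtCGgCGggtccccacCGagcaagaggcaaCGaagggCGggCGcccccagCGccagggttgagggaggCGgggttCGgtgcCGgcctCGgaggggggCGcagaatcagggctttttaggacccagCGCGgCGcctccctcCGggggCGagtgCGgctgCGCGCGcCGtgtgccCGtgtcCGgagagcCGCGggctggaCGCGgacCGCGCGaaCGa
Kcnn3: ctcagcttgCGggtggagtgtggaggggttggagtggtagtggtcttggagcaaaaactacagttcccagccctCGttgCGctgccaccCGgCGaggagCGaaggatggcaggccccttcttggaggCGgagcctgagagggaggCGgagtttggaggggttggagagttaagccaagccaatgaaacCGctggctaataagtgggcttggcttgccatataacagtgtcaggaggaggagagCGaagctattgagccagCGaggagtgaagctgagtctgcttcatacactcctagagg
Kcnj5: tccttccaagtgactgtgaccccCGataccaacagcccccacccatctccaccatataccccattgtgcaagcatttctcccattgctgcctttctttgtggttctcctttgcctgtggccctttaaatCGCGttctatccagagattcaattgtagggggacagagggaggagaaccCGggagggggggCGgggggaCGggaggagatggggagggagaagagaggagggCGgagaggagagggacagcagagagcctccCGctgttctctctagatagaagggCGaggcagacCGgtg

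Promoter windows of the members that rose had a lower median CpG count than those of the members that fell or were not called. RefSeq windows were at hand for 69 of the 94 members, 63 of them within 500 bases of the GENCODE gene start. Called members with no window here included Kcng1, Kcnh3, Kcnj11, Kcnk3, Kcnk6, Kcnk9, Kcnt1 and Kcnv1. The windows of 15 higher members held 3 to 37 CpGs (median 9), those of 12 lower members 5 to 48 (median 15) and those of 26 uncalled members 1 to 41 (median 19). Over all 32851 windows of the table the median was 7, below that of the higher members too. That set holds every window of each gene, without a limit on the distance to the gene start. At least 20 CpGs were present in 2 of the 15 higher, 6 of the 12 lower and 13 of the 26 uncalled members, against 26.5% of all 32851 windows of the table. The 2 higher members were Kcna3 with 37 CpGs and Kcna4 with 20, and the highest counts among lower members were 48 in Kcnmb4 and 41 in Kcnc1. A cAMP response element (TGACGTCA, both strands) was in 0 of the 69 windows, against 1.79% of all windows. The E-box CAGATG, read on both strands, was in 13 of the 69, against 17.2% of all windows. The TATA box TATAAA, on either strand, was in 3 of the 69, against 13.6% of all windows. These counts describe the letters of one window per gene, and the difference between groups was not tested.

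**Figure D2:**
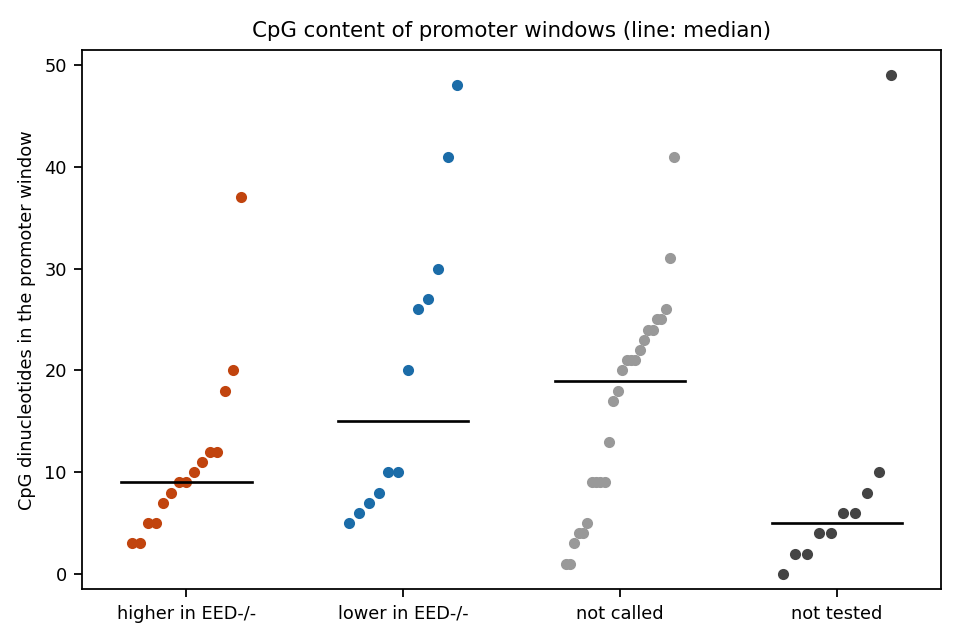
CpG dinucleotides in the 300-base promoter window (y axis) of each member with a RefSeq window within 500 bases of the gene start, by result in the EED-/- against WT comparison; lines are medians. The medians are 9 for higher, 15 for lower, 19 for uncalled and 5 for untested members, and each group spans a wide range.

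Among voltage-gated channels, of 37 tested genes 9 rose and 5 fell (median log2 change 0.18). These are 24.3% higher and 13.5% lower, against 11.7% higher and 14.1% lower over all tested genes. The share that fell was close to that of all tested genes. The lower genes included Kcnc1, Kcnd2, Kcnh1 and Kcnh3. The rises included 4 electrically silent subunits and 3 Shaker-type genes. Kcnc1, a Shaw-type subunit that repolarises fast-spiking neurons (chromosome 7, 46396497 to 46438704 in GRCm38), had 217, 202 and 209.9 CPM in EED-/- libraries, against 696, 555 and 519.8 CPM in WT libraries. The genotypes did not overlap, and Kcnc1 fell 2.82-fold (log2 fold change -1.49, SE 0.134, adjusted p = 0.000215). A relative went the other way. Kcnc2, which is known from inhibitory interneurons, had 51.6, 43.7 and 56 CPM in EED-/- libraries, against 18.7, 31.2 and 29.4 CPM in WT libraries (log2 fold change 0.93, SE 0.195, adjusted p = 0.00974). Its highest WT library stayed below its lowest EED-/- library. Kcnc4, a further Shaw-type gene, had 87.5 ± 9.26 CPM in EED-/- and 77.6 ± 11.2 CPM in WT libraries and was not called.

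The other falls were in the ether-a-go-go and A-type groups. Kcnh3, an ELK-type subunit of forebrain neurons, had 2.65, 2.73 and 2.64 CPM in EED-/- libraries, against 10.6, 7.08 and 7.29 CPM in WT libraries (log2 fold change -1.64, SE 0.208, adjusted p = 0.0011). Kcnh1, an ether-a-go-go channel of neurons, had 23.5, 19.4 and 26.8 CPM in EED-/- libraries, against 53.9, 48.4 and 44.8 CPM in WT libraries (log2 fold change -1.08, SE 0.145, adjusted p = 0.00141). Neither gene's groups overlapped, and the fitted falls were 3.11-fold for Kcnh3 and 2.11-fold for Kcnh1. No other of the 8 tested ether-a-go-go, ERG and ELK genes passed the test. Among them Kcnh2, the ERG channel of cardiac repolarisation, had 60.4 ± 3.41 CPM in EED-/- and 53.4 ± 8.23 CPM in WT libraries. Kcnh4, Kcnh5 and Kcnh7 were higher without overlap at log2 changes of 1.06, 1.39 and 1.06, with adjusted p-values of 0.0691, 0.0576 and 0.0973 by edgeR, and DESeq2 called Kcnh5 and Kcnh7. The median log2 change of the 8 was 0.38. Kcnd2, the somatodendritic A-type channel of granule neurons, had 105, 89.5 and 106 CPM in EED-/- libraries, against 150.0, 196 and 164 CPM in WT libraries (log2 fold change -0.76, SE 0.134, adjusted p = 0.00444). Its relative Kcnd3, known from Purkinje cells and interneurons, was not called at 88.3 ± 10.9 CPM in EED-/- and 91.4 ± 9.27 CPM in WT libraries, and neither was Kcnd1. The part of the lower granule neuron markers in the Kcnd2 value was not tested.

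Electrically silent subunits form no channel alone and modify the voltage-gated subunits they assemble with. Of 9 tested silent subunit genes 4 rose and the other 5 were not called, against 11.7% higher over all tested genes. Kcnv1 had 2.18, 1.65 and 1.91 CPM in EED-/- libraries, against 0.718, 0.697 and 0.517 CPM in WT libraries (log2 fold change 1.56, SE 0.281, adjusted p = 0.005). Kcnf1 had 10.1, 7.24 and 9.1 CPM in EED-/- libraries, against 4.87, 3.27 and 4.34 CPM in WT libraries (log2 fold change 1.08, SE 0.208, adjusted p = 0.00663). Kcng1 had 5.49, 4.52 and 9.89 CPM in EED-/- libraries, against 2.82, 1.82 and 2.07 CPM in WT libraries (log2 fold change 1.56, SE 0.326, adjusted p = 0.00962). EED-/- replicate 3 was the highest for Kcng1 and replicate 1 for Kcnf1, so the library that stood out was not the same. The fourth, Kcns3, had 6.96, 5.74 and 7.88 CPM in EED-/- libraries, against 3.18, 4.35 and 3.31 CPM in WT libraries (log2 fold change 0.92, SE 0.204, adjusted p = 0.0119). Its call ended without WT replicate 3. Kcnv1 rested on 120 counts over EED-/- and 37 over WT libraries.

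Of 6 tested Shaker-type genes 3 rose and 3 were not called, against 11.7% higher over all tested genes. Kcna3, a channel of lymphocytes and microglia, had 7.86, 6.77 and 6.02 CPM in EED-/- libraries, against 1.54, 3.06 and 3.98 CPM in WT libraries (log2 fold change 1.27, SE 0.31, adjusted p = 0.0183). The microglial marker list had 281 to 318 CPM in EED-/- and 159 to 168 CPM in WT libraries, and its part in the Kcna3 value was not tested. Kcna4, an A-type channel, was higher at a log2 change of 0.80 (adjusted p = 0.0207). Kcna6, a delayed rectifier of axons, was higher at 0.41 (adjusted p = 0.0408), and its call ended without each EED-/- replicate in turn and without WT replicate 2 or 3. The call of Kcna3 ended without EED-/- replicate 1 or 2, and that of Kcna4 without EED-/- replicate 1 or 3. The 2 Shaker-type genes with the highest CPM were not called. Kcna2 had 439 ± 91.1 CPM in EED-/- and 436 ± 67.9 CPM in WT libraries (log2 change 0.01, SE 0.173). Kcna1, the channel of basket cell terminals that is mutated in human episodic ataxia, had 125, 135 and 196 CPM in EED-/- libraries, against 208, 224 and 195 CPM in WT libraries. EED-/- replicate 3 lay among the WT values and the gene was not called (adjusted p = 0.0868). Without that replicate the log2 change was -0.62 (adjusted p = 0.0134; 0.0134 to 0.285 over all alternatives). Kcna5, which is next to Kcna1 on chromosome 6, was not called either.

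The Kcnq family, whose products carry the M-current that damps repetitive firing, had 0 called members by edgeR among 5 tested. At an unadjusted p under 0.05, 2 of them, Kcnq3 and Kcnq5, were higher, and DESeq2 called both and limma-voom only Kcnq3 of the 5. Kcnq3 had 101, 86.3 and 114 CPM in EED-/- libraries, against 43.3, 82.2 and 60.5 CPM in WT libraries, which did not overlap, but missed the threshold (log2 fold change 0.70, adjusted p = 0.0516). Kcna10, Kcna7 and Kcng3 were not tested, with 2 to 22 counts over the EED-/- and 8 to 14 over the WT libraries.

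**Figure D3:**
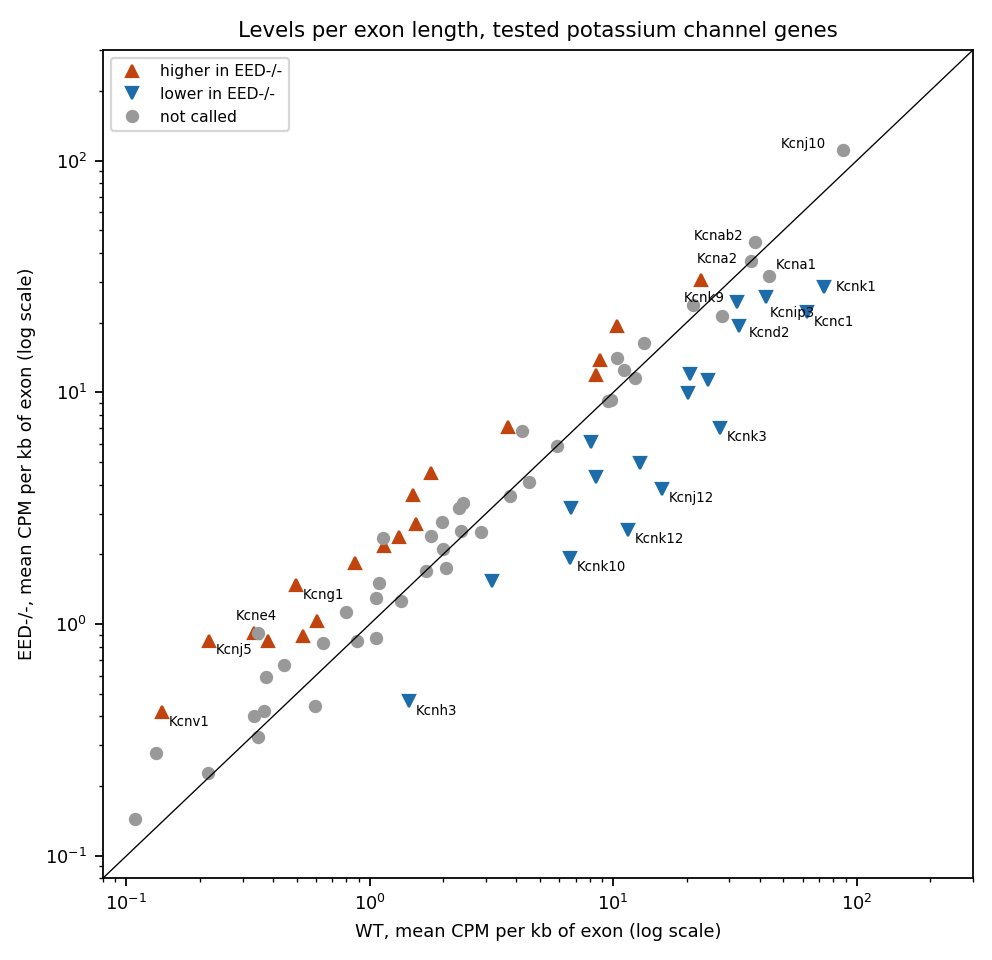
Mean level per exon length (CPM per kb, log axes) of 79 tested potassium channel genes in EED-/- (y axis) against WT (x axis) libraries; the line marks equal levels, and symbols show the call. Lower genes lie mostly in the upper WT range, as Kcnk1 with 73.8 CPM per kb in WT, whereas higher genes reach 23 CPM per kb in WT (Kcna6).

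Among inward rectifiers, of 13 tested genes 5 fell and 3 rose (median log2 change 0.34). These are 38.5% lower and 23.1% higher, against 14.1% lower and 11.7% higher over all tested genes. The falls included 3 of the 4 subunits of G protein-gated channels, which open when metabotropic receptors such as those for GABA are active. Kcnj12, a strong inward rectifier that stabilises the resting potential, fell most, by 4.14-fold. It had 10.1, 8.61 and 12.9 CPM in EED-/- libraries, against 53.7, 37 and 39.9 CPM in WT libraries (log2 fold change -2.05, SE 0.197, adjusted p = 0.000305). The groups were far apart. Of the G protein-gated subunits, Kcnj9 had 43.6, 38.4 and 46.2 CPM in EED-/- libraries, against 97.1, 83 and 81.2 CPM in WT libraries (log2 fold change -1.03, SE 0.123, adjusted p = 0.000847). Kcnj6, whose weaver mutation kills granule neurons in mice, had 11.9, 10.9 and 12.4 CPM in EED-/- libraries, against 27.3, 23.4 and 22.1 CPM in WT libraries (log2 fold change -1.05, SE 0.133, adjusted p = 0.0011). Both were at close to the same fold, and neither overlapped. Kcnj3, the partner subunit that gives these channels their full current, had 58.5, 52.8 and 77.3 CPM in EED-/- libraries, against 94.3, 124 and 107 CPM in WT libraries (log2 fold change -0.78, SE 0.167, adjusted p = 0.0105). Its call ended without EED-/- replicate 1. The fourth, Kcnj5, which is known from cardiac atrium, went the other way. Kcnj5 had 4.02, 4.19 and 3.72 CPM in EED-/- libraries, against 0.872, 1.13 and 1.09 CPM in WT libraries, a 3.85-fold rise (log2 fold change 1.95, SE 0.218, adjusted p = 0.000613). Its level stayed low. Per exon length it was 0.849 ± 0.0505 CPM per kb in EED-/- against 0.219 ± 0.0292 CPM per kb in WT libraries. The skeletal muscle genes rose in the same libraries, as given above, and their part in the Kcnj5 value was not tested.

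Kcnj11, the pore of the ATP-sensitive channel of neurons, had 19.1, 15.6 and 12.8 CPM in EED-/- libraries, against 37.7, 25.2 and 31.2 CPM in WT libraries (log2 fold change -0.99, SE 0.193, adjusted p = 0.00724). All EED-/- libraries were below all WT libraries. Its regulatory subunit Abcc8, outside the Kcn family, fell too, at 28.3 ± 2.04 CPM in EED-/- and 57.4 ± 6.23 CPM in WT libraries (log2 fold change -1.02, SE 0.122, adjusted p = 0.000834). The corresponding pair of mural cells did not pass the test: Kcnj8 had 4.44 ± 0.573 CPM in EED-/- and 5.24 ± 1.1 CPM in WT libraries and Abcc9 had 31.1 ± 0.411 CPM in EED-/- and 26.9 ± 0.186 CPM in WT libraries. Among rises, Kcnj16, the glial partner of Kcnj10, had 46.9, 53.3 and 61.9 CPM in EED-/- libraries, against 27.2, 41.1 and 36.3 CPM in WT libraries (log2 fold change 0.63, SE 0.172, adjusted p = 0.0273). Kcnj2, a strong inward rectifier, had 11.4, 10.7 and 16.5 CPM in EED-/- libraries, against 5.18, 9.01 and 7.29 CPM in WT libraries (log2 fold change 0.85, SE 0.243, adjusted p = 0.034). These genes are neighbours on chromosome 11, 38.2 kb apart. Both genes stayed higher in every alternative, but neither call held with each library left out in turn. Leaving out 1 library in turn gave 1205 to 2176 higher genes over all genes, against 2125 with every library. Leaving out EED-/- replicate 3 or WT replicate 3 ended both calls and left 1 higher inward rectifier. Leaving out EED-/- replicate 2 ended that of Kcnj16, and leaving out EED-/- replicate 1 or WT replicate 1 ended that of Kcnj2. Kcnj10, the potassium-buffering channel of Bergmann glia and astrocytes and the second most abundant member per exon length, had 541, 588 and 679 CPM in EED-/- libraries, against 475, 441 and 508 CPM in WT libraries. Its groups did not overlap but it missed the threshold (log2 fold change 0.34, SE 0.123, adjusted p = 0.0737). Over the alternatives its adjusted p was 0.0299 to 0.157. It lies 11.9 kb from Kcnj9, which fell. The glial marker list summed to 3391 to 4994 CPM in EED-/- and 3968 to 4234 CPM in WT libraries. Kcnj14, a strong inward rectifier, had 4.08 ± 0.243 CPM in EED-/- and 2.98 ± 0.327 CPM in WT libraries and was not called, nor were Kcnj13 and Kcnj4. Kcnj1, a kidney channel, had 0 counts in all 6 libraries, and Kcnj15 was not tested with 34 counts over EED-/- and 22 over WT libraries.

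Among two-pore channels, 6 of 11 tested genes were lower and 2 higher, with a median log2 change of -0.39, against 14.1% lower and 11.7% higher over all tested genes. Over the 14 alternatives 4 to 6 were lower. The summed level of the 14 genes was 456, 435 and 508 CPM in EED-/- libraries, against 865, 813 and 744 CPM in WT libraries. Kcnk12, a subunit that stays largely inside the cell, had 5.21, 5.83 and 4.01 CPM in EED-/- libraries, against 31.3, 16.5 and 20.3 CPM in WT libraries (log2 fold change -2.18, SE 0.261, adjusted p = 0.000847). Kcnk3, an acid-sensitive leak channel of granule neurons, had 32.1, 25.4 and 26.2 CPM in EED-/- libraries, against 141, 90.2 and 96 CPM in WT libraries (log2 fold change -1.97, SE 0.192, adjusted p = 0.000325). Kcnk10, a mechanically and lipid-gated leak channel (chromosome 12, 98429437 to 98578310), had 16.7, 15.2 and 19.1 CPM in EED-/- libraries, against 57.3, 66.1 and 52 CPM in WT libraries (log2 fold change -1.78, SE 0.139, adjusted p = 0.000115). These 3 fell by 3.44-fold to 4.52-fold, and in each the highest EED-/- library was far below the lowest WT library. Kcnk1, a weakly conducting channel among the 3 highest in WT per exon length, had 59.2, 61.1 and 70.9 CPM in EED-/- libraries, against 196, 152 and 146 CPM in WT libraries (log2 fold change -1.37, SE 0.146, adjusted p = 0.00048). All 4 kept the call in each of the 14 alternatives. Granule neurons are known for the acid-sensitive channels, and the part of the fall of all 10 granule neuron markers (563 to 807 CPM in EED-/- and 5102 to 6452 CPM in WT libraries) in these values was not tested.

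Unlike these, the other two falls were small. Kcnk2, the relative of Kcnk10, had 31.4, 30.1 and 28.8 CPM in EED-/- libraries, against 42.7, 38.1 and 39 CPM in WT libraries (log2 fold change -0.41, SE 0.106, adjusted p = 0.0232). Its call ended in 9 of 14 alternatives. Kcnk9, the acid-sensitive partner of Kcnk3, which is imprinted and expressed from the maternal allele in brain, had 293, 277 and 340.1 CPM in EED-/- libraries, against 382, 433 and 375 CPM in WT libraries (log2 fold change -0.39, SE 0.122, adjusted p = 0.0476). It was the most abundant two-pore gene by CPM. Its call ended in 12 of 14 alternatives, including every left-out library, where adjusted p-values were 0.0541 to 0.176. The acid-sensitive pair thus had unequal changes, -1.97 (SE 0.192) for Kcnk3 and -0.39 (SE 0.122) for Kcnk9. The difference between genes was not tested. The rises were in low genes. Kcnk6 had 3.93, 3.72 and 3.48 CPM in EED-/- libraries, against 2.51, 1.93 and 2.17 CPM in WT libraries (log2 fold change 0.75, SE 0.2, adjusted p = 0.0259). Kcnk4, a lipid-gated relative of Kcnk2 and Kcnk10, had 5.11, 5.27 and 3.48 CPM in EED-/- libraries, against 2.36, 3.06 and 2.74 CPM in WT libraries (log2 fold change 0.76, SE 0.227, adjusted p = 0.0382). Of its 4465 exonic bases 587 are shared with Catsperz on the same strand, so its counts are uncertain. Neither was called without EED-/- replicate 1, EED-/- replicate 2 or WT replicate 3, and 1 two-pore gene was higher without WT replicate 1 or WT replicate 2. Kcnk5 had 2.02 ± 0.255 CPM in EED-/- and 1.27 ± 0.17 CPM in WT libraries and was not called. Kcnk13, a channel of microglia, had 7.77 ± 0.5 CPM in EED-/- and 8.93 ± 0.831 CPM in WT libraries and was not called. Kcnk15, also not called, had 50 counts over EED-/- and 38 over WT libraries. Kcnk16, Kcnk18 and Kcnk7 had 0 to 8 counts over a genotype and were not tested.

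**Figure D4:**
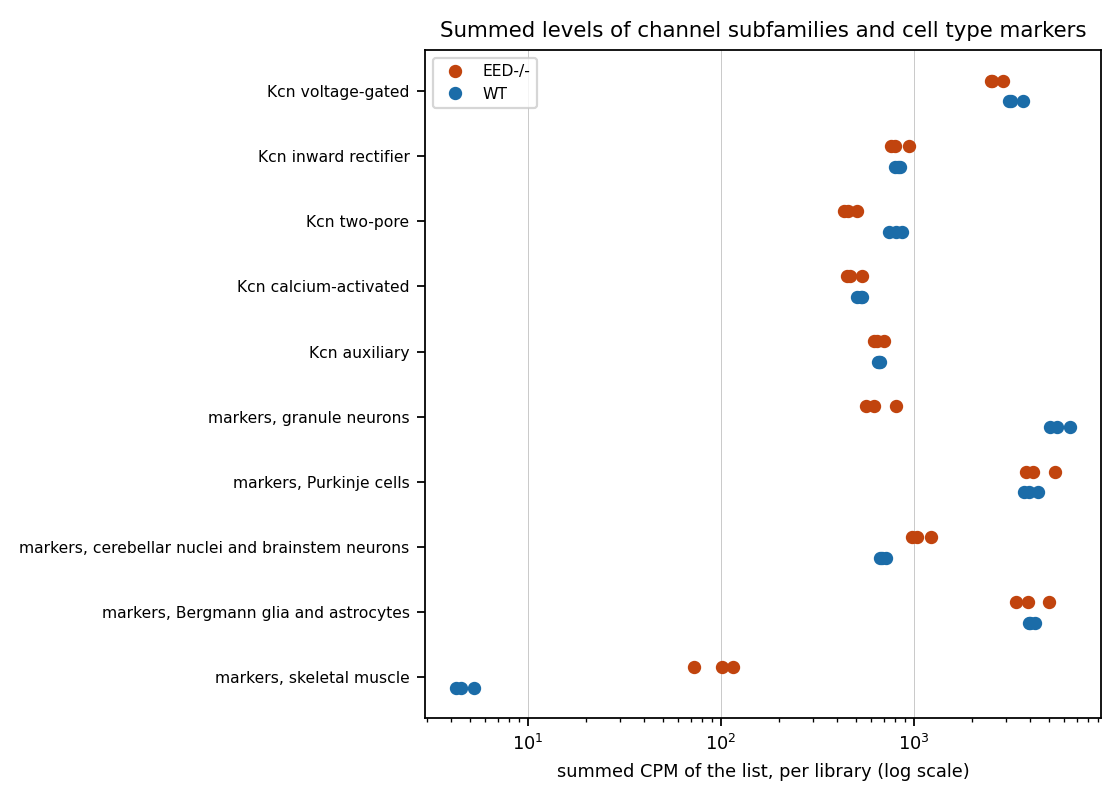
Summed CPM per library (x axis, log scale) of the 5 potassium channel subfamilies and of 5 cell type marker lists, with EED-/- libraries above WT libraries in each row. Two-pore channels sum to 435 to 508 CPM in EED-/- and 744 to 865 CPM in WT libraries, and their genotypes do not overlap, as is also so for the voltage-gated genes (2526 to 2901 CPM in EED-/- and 3128 to 3661 CPM in WT libraries), though for these not with upper-quartile scaling.

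Among calcium-activated channels and their relatives, of 7 tested genes 2 rose and 1 fell (median log2 change 0.29). These are 28.6% higher and 14.3% lower, against 11.7% higher and 14.1% lower over all tested genes. The share that fell was close to that of all tested genes. Kcnn3, a small-conductance calcium-activated channel of the afterhyperpolarisation in monoaminergic and other neurons (chromosome 3, 89520164 to 89675132), had 49.4, 45.1 and 46.3 CPM in EED-/- libraries, against 18.7, 19.8 and 17.5 CPM in WT libraries. The groups were far apart with little spread, and Kcnn3 rose 2.51-fold (log2 fold change 1.33, SE 0.109, adjusted p = 0.000141). The 6 higher markers of cerebellar nuclei and brainstem neurons moved the same way, and their part in this value was not tested. Its relatives did not pass the test: Kcnn2, known from Purkinje cells, had 30.7 ± 1.53 CPM in EED-/- and 33.8 ± 0.62 CPM in WT libraries (log2 change -0.14, SE 0.102), and Kcnn1 had 14.5 ± 2.37 CPM in EED-/- and 10.6 ± 1.55 CPM in WT libraries. The sodium-activated pair moved apart. Kcnt1, which is mutated in severe human epilepsies, had 104, 110.3 and 108 CPM in EED-/- libraries, against 227, 226 and 244 CPM in WT libraries (log2 fold change -1.11, SE 0.1, adjusted p = 0.000218). Kcnt2 had 6.44, 4.99 and 6.12 CPM in EED-/- libraries, against 1.23, 3.06 and 3.62 CPM in WT libraries (log2 fold change 1.15, SE 0.344, adjusted p = 0.0396). Kcnt2 was at a low level. Its call ended without any one of the 3 EED-/- replicates or WT replicate 2. The subfamily then had 1 higher gene without EED-/- replicate 1, EED-/- replicate 2 or WT replicate 2. Kcnma1, the large-conductance channel of Purkinje cells, was the most abundant member of the subfamily by CPM, with 258, 242 and 331 CPM in EED-/- libraries, against 216, 247 and 219 CPM in WT libraries. The genotypes overlapped and it was not called (log2 change 0.29, SE 0.141). Kcnu1, a pH-activated channel of sperm, was not called, and Kcnn4 was not tested, with 25 counts over EED-/- and 11 over WT libraries.

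Among auxiliary subunits, of 14 tested genes 3 rose and 2 fell (median log2 change 0.04). These are 21.4% higher and 14.3% lower, against 11.7% higher and 14.1% lower over all tested genes. The share that fell was close to that of all tested genes. Libraries of the genotypes did not overlap in 42.9% of the 14, against 43.9% of all tested genes. Kcnmb4, the neuronal beta subunit that slows the large-conductance channel, had 16.9, 15.1 and 17.4 CPM in EED-/- libraries, against 53, 37 and 38.7 CPM in WT libraries and fell 2.61-fold (log2 fold change -1.38, SE 0.16, adjusted p = 0.000715). The genotypes were far apart, whereas its pore partner Kcnma1 was not called; the difference between these genes was not tested. Antisense lncRNAs Kcnmb4os1 and Kcnmb4os2 overlap 355 and 693 of the 3324 exonic bases of Kcnmb4 on the other strand, and the strand setting of the counting is not stated. Of the other 3 genes of that family, Kcnmb1 and Kcnmb2 were not called, and Kcnmb3 had 0 counts over EED-/- and 4 over WT libraries.

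Kcnip3, a calcium sensor that binds A-type channels of the Kcnd family, had 95.1, 95.5 and 83.2 CPM in EED-/- libraries, against 168, 142 and 139 CPM in WT libraries (log2 fold change -0.71, SE 0.121, adjusted p = 0.00388). Kcnip1, which serves the same channels, went the other way with 75.3, 74.3 and 71.9 CPM in EED-/- libraries, against 55.1, 51.7 and 50.5 CPM in WT libraries (log2 fold change 0.49, SE 0.0993, adjusted p = 0.00831). The difference was small and the replicates were close together, and it was not called without WT replicate 3. The remaining members of the group were not called; Kcnip4 had 51.2 ± 10.8 CPM in EED-/- and 37.5 ± 11.8 CPM in WT libraries and Kcnip2 had 20.3 ± 1.53 CPM in EED-/- and 20.5 ± 3.87 CPM in WT libraries. Beside these, Kcnd2 itself fell, and so did Dpp6, a membrane partner of the Kcnd channels outside the Kcn family, at 261 ± 14.9 CPM in EED-/- and 353 ± 49.3 CPM in WT libraries. The beta subunits of Shaker channels had no call by edgeR among 3 tested genes, with 0 at an unadjusted p under 0.05 and 0 called by DESeq2 or limma-voom. Kcnab2, the most abundant auxiliary gene by CPM, had 247 ± 19.4 CPM in EED-/- and 214 ± 8.51 CPM in WT libraries and Kcnab1 had 79.6 ± 23.2 CPM in EED-/- and 83.8 ± 16.9 CPM in WT libraries. In the family of small single-pass subunits, Kcne4 had 2.23, 2.45 and 2.59 CPM in EED-/- libraries, against 0.77, 0.858 and 1.03 CPM in WT libraries (log2 fold change 1.44, SE 0.245, adjusted p = 0.00397). Kcne1l had 29.4, 34.9 and 25.5 CPM in EED-/- libraries, against 17.1, 12.2 and 18.8 CPM in WT libraries (log2 fold change 0.90, SE 0.186, adjusted p = 0.00915). Kcne2, an epithelial subunit known from choroid plexus, had 3.01 ± 1.25 CPM in EED-/- and 2.99 ± 0.144 CPM in WT libraries. Of the 5 choroid plexus markers edgeR called 0 (1 at an unadjusted p under 0.05, 0 by DESeq2 and 0 by limma-voom), and their summed level was 381 to 794 CPM in EED-/- and 773 to 808 CPM in WT libraries. Kcnrg, a regulator of assembly, was not called, and Kcne1 and Kcne3 were not tested, the second having 1 count over EED-/- and 0 over WT libraries.

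**Figure D5:**
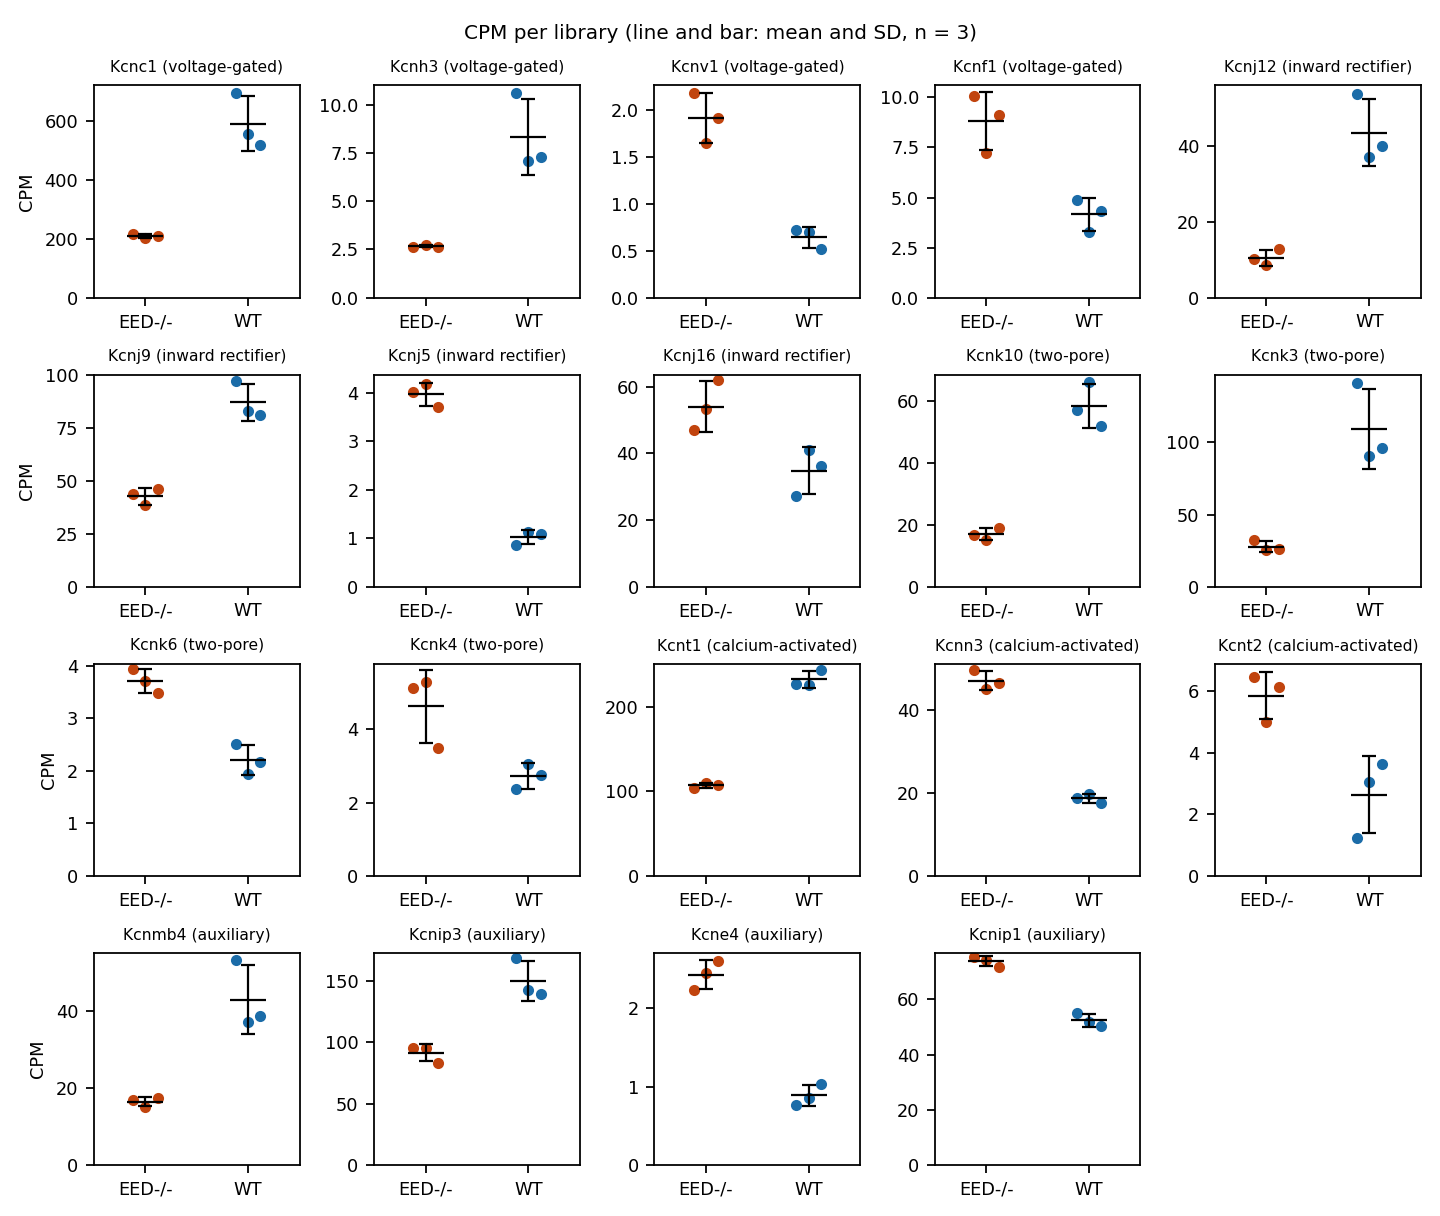
CPM per library (y axis, from 0) of called members with a small adjusted p, up to 2 in each direction for each subfamily; points are libraries, lines and bars the mean and SD (n = 3). In each of the 19 panels the 3 EED-/- points lie wholly above or wholly below the 3 WT points, as in Kcnk10 (17 ± 1.95 CPM in EED-/- and 58.5 ± 7.13 CPM in WT libraries). No called member overlapped between genotypes, so this separation follows from the choice of genes.

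Genes that work with potassium channels but lie outside the Kcn family were listed as well. Of 23 tested of 24 listed 7 fell and 1 rose, 30.4% and 4.35%, against 14.1% lower and 11.7% higher over all tested genes (median log2 change -0.27). The lower genes numbered 5 with each other scaling, the filter at 1 CPM and the replicate block, and also without EED-/- replicate 3, WT replicate 1 or WT replicate 3. Without EED-/- replicate 1 or 2 the lower genes numbered 4. Higher genes numbered 0 without EED-/- replicate 1, EED-/- replicate 2 or WT replicate 3, and 2 without EED-/- replicate 3 or with upper-quartile scaling. Cntn2, an adhesion molecule that gathers Shaker channels beside nodes of Ranvier and is also made by granule neurons, had 159, 161 and 159 CPM in EED-/- libraries, against 652, 528 and 546 CPM in WT libraries (log2 fold change -1.85, SE 0.119, adjusted p = 5.12e-05). Sptbn4, a spectrin that anchors channels at the axon initial segment, had 145, 172 and 129 CPM in EED-/- libraries, against 307, 251 and 275 CPM in WT libraries (log2 fold change -0.90, SE 0.139, adjusted p = 0.00257). Neither overlapped between genotypes. Lrrc38, a gamma subunit of the large-conductance channel, had 1.47, 1.65 and 1.22 CPM in EED-/- libraries, against 5.9, 3.97 and 3.93 CPM in WT libraries (log2 fold change -1.66, SE 0.249, adjusted p = 0.00228). The other lower genes were Abcc8 and Dpp6, given above, and Adam22 and Dlg4, which hold synaptic and axonal complexes, at log2 changes of -0.67 and -0.51. Hcn4, a hyperpolarisation-activated cation channel of pacemaking, was the higher gene at 30.8 ± 1.58 CPM in EED-/- and 21.5 ± 2.33 CPM in WT libraries (log2 fold change 0.52, SE 0.122, adjusted p = 0.0156), and Hcn2 and Hcn3 were not called. Cntnap2, the partner of Cntn2, was not called at 149 ± 19.5 CPM in EED-/- and 119.8 ± 14.8 CPM in WT libraries, nor was Ank3 (567 ± 57.7 CPM in EED-/- and 719 ± 25.9 CPM in WT libraries).

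Of 17 pairs of adjacent members less than 500 kb apart, both genes were tested in 9 and both called in 2. The 46.3% called is a share of single members and cannot be set against a share of pairs. Whether neighbours were called together more or less often than other members was not tested. The pairs with both genes called were Kcnj16 with Kcnj2, both higher, and Kcnj11 with Kcnc1 on chromosome 7, both lower and 295.7 kb apart. In the Shaker cluster on chromosome 3, Kcna3 rose while Kcna2, 63.1 kb away, was not called, and in that on chromosome 6 Kcna6 was called and Kcna1 and Kcna5 were not. Exons of 12 of the 38 called members overlap a gene on the opposite strand, among them Kcna6, where 2355 of 5945 exonic bases overlap Gm26673, Kcnj3, where 1621 of 5215 overlap Gm26794, and Kcnj6, Kcnj9, Kcnk1, Kcnk2 and Kcnk3. Without a stated strand setting, reads of the partners cannot be told apart.

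In the authors' deposited table of differences, 22 members were higher and 19 lower at an adjusted p under 0.05 among 93 with a p-value, against 6.04% higher and 6.7% lower among all 35173 genes with one. These sets are unlike in level. The low-count filter used here kept 18091 of the 35196 genes with a count, but 82 of the 94 members. All 19 lower and 17 of the 22 higher were also called by edgeR here. The 5 others in the authors' deposited table were Kcnq3 (adjusted p = 0.00469), Kcnh7 (0.0074), Kcnh5 (0.0206), Kcnj10 (0.0334) and Kcnq5 (0.04), each higher in EED-/-. Kcnk4 and Kcnk6, called here, were at adjusted p = 0.051 and 0.066 in the authors' deposited table.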

How the data were processed

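Polyadenylated RNA of mouse cerebellum was measured in 3 EED-/- and 3 WT libraries. The deposited table gives estimated counts per gene, not scaled between libraries (22.5% to 23.6% of values per library were not whole to within 1e-06). Tools listed in the submitters' processing notes, without their roles, are Salmon 1.1.0, Trimmomatic 0.36, MACS2, DESeq2 1.26.0 and Bowtie2 2.4.1; the builds listed are mm10 and GRCm38. The authors' deposited table holds, per the file headers, DESeq2 columns with the log2 fold change of each gene and its p-value before and after adjustment; its mean normalized signal and its Wald score per gene, as deposited by the authors, were not used. The authors' p-value was missing for 20212 genes, which were not counted as tested there.

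Counts were rounded, genes were filtered with filterByExpr (18091 of the 35196 genes with a count were kept), scaled with TMM and tested two-sided with edgeR 4.0.16 in R 4.3.3 (glmQLFit and glmQLFTest, robust) with genotype as the only term and an adjusted p under 0.05 as the threshold. Each SE was obtained by dividing the size of the log2 change by the root of its F. CPM per kb uses the union of GENCODE vM21 exons, and all 94 members matched by Ensembl identifier. With about 20 counts per CPM, genes under 1 CPM rest on few counts. No 2 replicates looked like 1 library deposited again (8.36 to 55.2 chi-square units for each degree of freedom between them), though repeat libraries of 1 animal could also differ this much. Alternatives were other scalings, filters, DESeq2 1.42.0, limma-voom (limma 3.58.1), a replicate block and leaving out each library. The procedure was also run on counts simulated with the same spread setting for every gene, and no call above rests on that run. Promoter sequences came from RefSeq (GRCm38.p6).

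Members and gene lists were chosen with earlier results of these data known. The naming rule took Eed, every called member, with values per library for up to 6 in each direction of a subfamily by smallest adjusted p, and the 3 uncalled members with the highest CPM of each subfamily. Some members and 1 gene outside the family that the rules name are not reported here, and the figures leave them out. Other uncalled members and the genes outside the Kcn family were named after their values were seen.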

Additional observations from a re-analysis of the deposited data

How the results depend on the processing

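Deviations of same-numbered EED-/- and WT libraries from their genotype means correlated at 0.0276, -0.233 and -0.00125 for numbers 1, 2 and 3 across genes. Differently numbered libraries correlated at -0.188 to 0.198. With 3 libraries per genotype these values cannot decide whether the replicate numbers pair the libraries. With the replicate block 17 members were higher and 16 lower, 0 two-pore genes were higher, and over all genes 1505 were higher and 1706 lower. Over the 14 alternatives, each of the 38 called members kept its direction, in 469 of 532 gene and setting combinations with its call, and 24 kept the call in every one (9 higher and 15 lower). Of 209 combinations for 15 uncalled members, 7 passed the threshold. Leaving out 1 library in turn gave 1205 to 2176 higher and 1335 to 2476 lower genes over all genes, against 2125 and 2544, and 12 to 19 higher and 15 to 18 lower members. Over all genes, higher calls moved most without EED-/- replicate 1 (1205), EED-/- replicate 2 (1337) or WT replicate 3 (1324), and lower calls without EED-/- replicate 1 (1335), EED-/- replicate 3 (1677) or WT replicate 3 (1640). Higher genes then ranged over 1 to 3 for inward rectifiers, 0 to 2 for two-pore channels and 1 to 2 for calcium-activated channels. Channel-associated genes outside Kcn ranged over 0 to 2 higher and 4 to 7 lower, and 2 were higher with upper-quartile scaling and with no low-count filter. The cause of these shifts was not tested. DESeq2 called 24 members higher and 19 lower, and limma-voom 20 and 19. Depth limits the 12 untested members, which had at most 34 counts over a genotype.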
